A study of Callithrix jacchus with 54 samples.

Results

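The effect of BMP4 on marmoset primordial germ cell-like cells (cjPGCLCs) was examined at 96 h of induction in BLIMP1-tdTomato-positive cells sorted from SOX17 + BLSE (BMP4, LIF, SCF and EGF) and SOX17 + LSE (the same without BMP4) cultures. The comparison uses 4 of the 54 RNA-seq libraries and 2 of the 27 conditions of the series, chosen by their labels. All 4 came from the female marmoset embryonic stem cell (cjESC) line CMES40, kept in DK20FA medium, with tdTomato at BLIMP1 (PRDM1), eGFP at NANOS3, and transgenes for rtTA, tetO-BLIMP1, SOX17-GR and destabilized TFAP2C. Both groups received LIF, SCF, EGF and a Rock inhibitor, and in both the SOX17-GR protein, a fusion to the glucocorticoid receptor, was switched on with dexamethasone, so that BMP4 was the agent that separated SOX17 + BLSE from SOX17 + LSE. The labels call the sorted cells cjPGCLCs with BMP4 and differentiated cells without it, although both were gated as tdTomato-positive. The cells are of 1 line. The methods call the replicates biological duplicates without saying what separated them. The p-values thus measure only the spread between replicate libraries, pooled over the 54 libraries of the series.

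BMP4 is a secreted ligand of the TGF-beta family that binds type I and type II receptors, and the receptors phosphorylate SMAD1, SMAD5 and SMAD9, which enter the nucleus with SMAD4 and switch on ID, MSX and inhibitory SMAD genes. In primate embryos BMP signals act on the epiblast and on the nascent amnion around the time that primordial germ cells (PGCs) arise, and SOX17, PRDM1 and TFAP2C then form the core of the germ cell programme. WNT and NODAL signals act in the same period on mesoderm and endoderm formation. The question was therefore which genes still differed with BMP4 once SOX17 was supplied and the BLIMP1-positive cells had been isolated.

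Expression was given in TPM, a transcript level scaled for length and for the library total, and all differences below are on the log2(TPM + 1) scale, SOX17 + BLSE minus SOX17 + LSE, which understates the change of low genes. The replicates correlated at r = 0.986 with BMP4 and 0.988 without it across 11197 genes, and pairs from different groups at 0.968 to 0.972. Between 12016 and 12334 of the 14812 genes in the table were above 0 in each library. FN1 was listed at 0 in all 4 libraries and SMAD2, a gene of nearly every cell, did not pass 0.28 TPM, so a value near 0 in the table is not evidence that a gene was silent. Because the samples are bulk RNA, fewer cells of a type and less RNA per cell cannot be told apart. PRDM1, whose locus drives the sorted reporter, was 183 and 155 TPM with BMP4 and 201 and 172 TPM without it, and the groups overlapped. Each SE comes from the spread of the gene over all conditions of the series, drawn toward the spread of genes at similar levels. It does not come from these 4 libraries alone.

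With BMP4, 37 genes were higher and 49 were lower by more than 4-fold at an adjusted p under 0.01, with an average level above 1.5 on the log2 scale (limma, Benjamini-Hochberg over 11197 genes). These differentially expressed genes (DEGs) were 0.330% and 0.438% of the genes tested. At an adjusted p under 0.05 and any fold, 560 genes (5.00%) were higher and 877 (7.83%) lower. With a pseudocount of 0.1 in place of 1, 21 genes were higher and 45 lower by the DEG rule, and 49 of the 86 DEGs were shared. Leaving out any 1 of the 4 libraries reduced the 1437 genes at an adjusted p under 0.05 to between 840 and 941. The median difference over all genes was -0.02. Among genes with a symbol, the higher ones were led by PRR9, a proline-rich gene of the epidermal differentiation complex, and GAST, which encodes the hormone gastrin. The lower ones were led by WNT8A, a WNT ligand of the primitive streak, and included TTR, the transthyretin gene of liver and visceral endoderm. When the spread was estimated from the 4 libraries alone, limma called no gene by either rule, although 2423 genes had an unadjusted p under 0.05. The calls thus rest on the spread pooled over all 27 conditions.

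PRR9 was 301 and 531 TPM with BMP4 and 0 and 5.30 TPM without it. Both BMP4 libraries were far above both others, and the difference was 7.32 (SE 0.52, adjusted p = 2.05e-12). GAST stood at 33.6 and 55.0 TPM with BMP4 and 0 and 0.89 TPM without it, a difference of 5.00 (SE 0.85, adjusted p = 6.19e-05). The groups did not overlap, and the gene was close to 0 in the libraries without BMP4. KRT72, a type II keratin of the hair follicle sheath, was 94.3 and 109 TPM with BMP4 and 2.48 and 9.57 TPM without it, with a difference of 4.08 (SE 0.39, adjusted p = 1.61e-09). SLC13A4, a sodium-sulfate cotransporter known from the placenta, gave 70.2 and 129.9 TPM with BMP4 and 5.76 and 10.7 TPM without it, and COMP, a cartilage matrix protein, gave 99.5 and 186 TPM with BMP4 and 12.1 and 18.8 TPM without it. Their differences were 3.44 ± 0.34 and 3.09 ± 0.51 (SE). In both genes the groups were apart and replicate 2 was the higher library of each group.

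S100P, a calcium-binding protein found in the placenta, was 10.1 and 17.5 TPM with BMP4 and 0 and 0.80 TPM without it, and its difference was 3.42 (SE 0.45, adjusted p = 9.28e-07). ERVV-2, an envelope gene of retroviral origin known from the placenta, was 4.88 and 10.5 TPM with BMP4 and 0 and 0.27 TPM without it. Both genes were near 0 without BMP4 and modest with it. B4GALNT2, a glycosyltransferase, was 7.08 and 7.34 TPM with BMP4 and 0 and 0.39 TPM without it, and NUPR1, a stress-responsive nuclear protein, was 5.87 and 12.3 TPM with BMP4 and 0.46 and 0.47 TPM without it. The differences of ERVV-2, B4GALNT2 and NUPR1 were 2.87, 2.80 and 2.70, with SEs of 0.32, 0.24 and 0.48. A gene with a locus number, LOC100391685, ranked between PRR9 and GAST and was chosen after its values were seen. RefSeq's marmoset table (assembly calJac240_pri) lists it under the synonyms CG-beta and CGB, the beta subunit of chorionic gonadotropin. This subunit is similar to that of luteinizing hormone, so the level of LOC100391685 is uncertain. It was 419 and 805 TPM with BMP4 and 2.94 and 8.12 TPM without it, a difference of 6.60 (SE 0.72, adjusted p = 2.42e-08).

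Among the 37 higher DEGs, replicate 2 exceeded replicate 1 in 34 genes with BMP4 and in 27 genes without it, while over all genes it did so in 5204 and 4708 of 11197. The median excess of replicate 2 in these 37 genes was 0.66 with BMP4 and 0.41 without it. Leaving out replicate 2 of the BMP4 group left 22 higher DEGs, and leaving out replicate 1 gave 50. The 10 largest increases and the 10 largest decreases were picked for their size in these 4 libraries. That each stayed at an adjusted p under 0.05 without any 1 library was therefore largely set in advance.

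**Figure D1:**
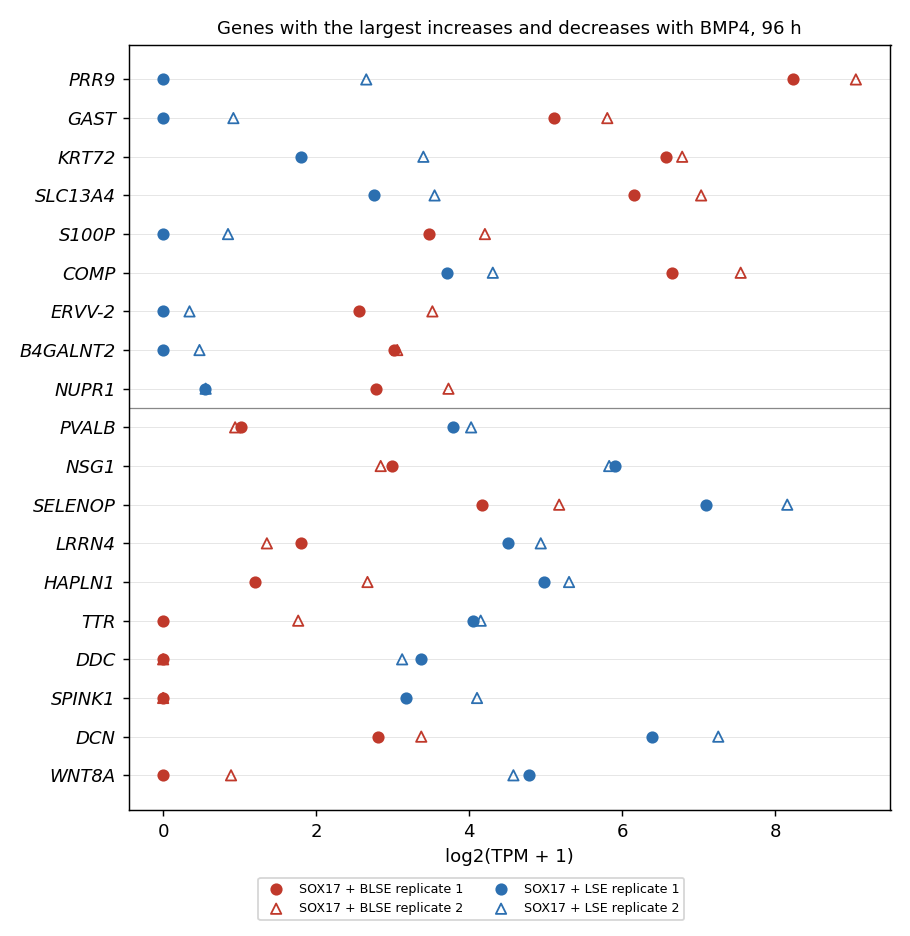
Levels of 9 of the 10 genes with the largest increase (top) and of the 10 with the largest decrease (bottom) with BMP4, one symbol for each library, on the log2(TPM + 1) axis; red is SOX17 + BLSE, blue is SOX17 + LSE, filled circles are replicate 1 and open triangles replicate 2. In every gene shown both red symbols lie on one side of both blue symbols, from PRR9 (7.32) to WNT8A (-4.23).

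WNT8A was 0 and 0.85 TPM with BMP4 and 26.4 and 22.9 TPM without it, and the difference was -4.23 (SE 0.41, adjusted p = 1.61e-09). DCN, the small matrix proteoglycan decorin, was 6.01 and 9.37 TPM with BMP4 and 83.1 and 152 TPM without it, a difference of -3.73 (SE 0.44, adjusted p = 1.32e-07). Both genes were clearly expressed in the libraries without BMP4 and separated the groups. TTR was 0 and 2.40 TPM with BMP4 and 15.6 and 16.8 TPM without it, a difference of -3.22 (SE 0.49, adjusted p = 1.3e-05). SELENOP, the plasma selenium carrier made by liver, was 17.0 and 35.2 TPM with BMP4 and 136 and 285 TPM without it, a difference of -2.95 (SE 0.40, adjusted p = 1.58e-06). SPINK1, a pancreatic trypsin inhibitor, was listed at 0 in both BMP4 libraries and at 8.05 and 16.2 TPM without BMP4. DDC, the decarboxylase that makes dopamine and serotonin, was likewise listed at 0 in both BMP4 libraries and at 9.30 and 7.72 TPM in the others. No fold is given for these last genes, whose adjusted p-values were 8.94e-05 and 1.3e-09.

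HAPLN1, a link protein of hyaluronan matrix, was 1.29 and 5.37 TPM with BMP4 and 30.4 and 38.6 TPM without it. LRRN4, a leucine-rich repeat membrane protein, was 2.50 and 1.56 TPM with BMP4 and 21.7 and 29.6 TPM without it. Their differences were -3.21 ± 0.32 and -3.14 ± 0.24 (SE), and no library of one group reached the other group. NSG1, an endosomal protein of neurons, was 6.98 and 6.18 TPM with BMP4 and 59.2 and 55.9 TPM without it, and PVALB, a calcium buffer, was 1.02 and 0.92 TPM with BMP4 and 12.8 and 15.3 TPM without it. They differed by -2.95 ± 0.19 and -2.93 ± 0.46 (SE). The SE of NSG1 was the smallest among the 20 genes with the largest changes. A locus without a name in RefSeq's table, LOC100408003, had the lowest difference of all DEGs and was chosen after its values were seen. It was 3.02 and 1.91 TPM with BMP4 and 84.4 and 64.4 TPM without it, a difference of -4.45 (SE 0.67, adjusted p = 1.08e-05). Leaving out replicate 1 of the group without BMP4 raised the number of lower DEGs from 49 to 77, and leaving out its replicate 2 gave 40.

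**Figure D2:**
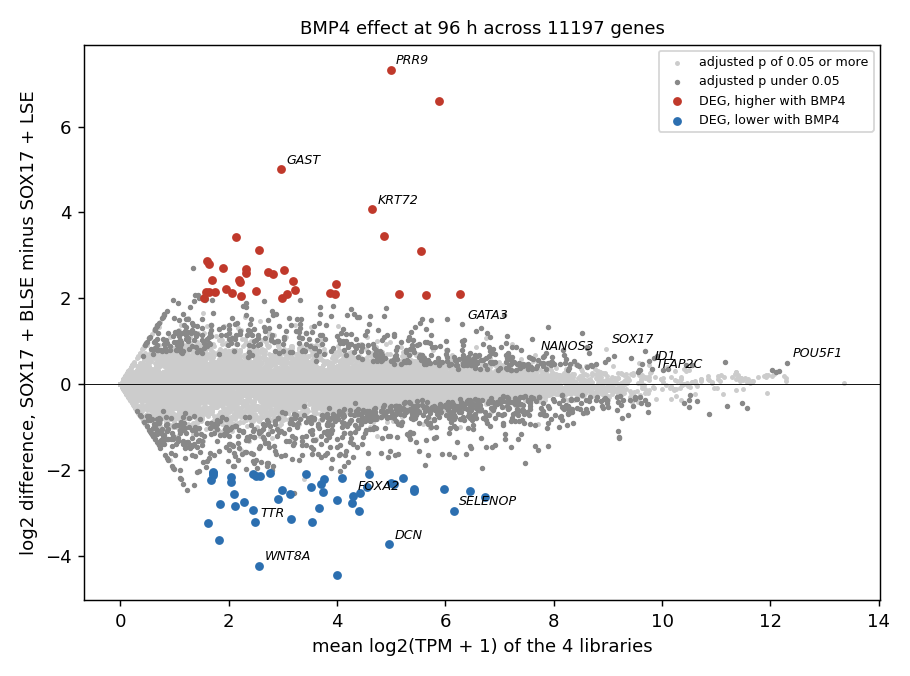
Mean level of the 4 libraries (x axis, log2(TPM + 1)) against the log2 difference with BMP4 (y axis) for the 11197 genes tested, with DEGs in red (37 higher) and blue (49 lower) and other genes at an adjusted p under 0.05 in dark grey. PRR9 stands at the top and WNT8A near the bottom, while the abundant germ cell genes SOX17, NANOS3 and TFAP2C lie within 1 log2 unit of 0 (0.82, 0.68 and 0.25).

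Immediate targets of BMP signalling were only in part higher at 96 h. Of the 16 genes listed as BMP targets and feedback, 14 were tested and 5 rose, 0 fell and 9 did not pass, with a median difference of 0.39 against -0.02 over all genes. Of all genes, 5.00% were higher and 7.83% lower by the same rule, which applies to every list below. DLX5, a homeobox gene, was 9.22 and 13.2 TPM with BMP4 and 1.68 and 1.69 TPM without it, a difference of 2.17 (SE 0.31, adjusted p = 5.55e-06). MSX1, another homeobox gene, was 34.3 and 28.1 TPM with BMP4 and 7.66 and 11.6 TPM without it, a difference of 1.62 (SE 0.40, adjusted p = 0.00478). SMAD7, an inhibitory SMAD, was 86.6 and 76.1 TPM with BMP4 and 48.0 and 50.7 TPM without it, a difference of 0.71 (SE 0.17, adjusted p = 0.00322), and HEY1 was 34.2 and 29.4 TPM with BMP4 and 21.4 and 20.1 TPM without it (0.59, adjusted p = 0.0347). BAMBI, a decoy receptor, was the remaining gene that rose and was chosen after its values were seen (0.55, adjusted p = 0.0388). With 1 library left out, 1 to 3 of the 14 passed. HEY1 and BAMBI lost their calls whichever library was left out, MSX1 without replicate 1 of either group and SMAD7 without replicate 1 of the BMP4 group. With the replicate block 4 rose, and BAMBI did not, while 3 rose with a pseudocount of 0.1, where MSX1 lost its call, or without the intensity trend.

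The ID genes, which encode inhibitors of helix-loop-helix factors, were expressed in every library. ID1 was 1007 and 1006 TPM with BMP4 and 662 and 832 TPM without it, a difference of 0.44 (SE 0.18, adjusted p = 0.11). ID4 was 35.9 and 47.2 TPM with BMP4 and 39.1 and 43.2 TPM without it, and the groups overlapped, with a difference of 0.00 whose 95% interval ran from -0.44 to 0.44. MSX2 was 301 and 248 TPM with BMP4 and 196 and 195 TPM without it, with a difference of 0.48 (SE 0.22, adjusted p = 0.166). These genes had differed far more at earlier times of the same courses, where the labels give no reporter gate and the cells are called unsorted here. At 12 h the differences of ID1, ID4 and MSX2 were 2.47, 2.67 and 3.08, and at 48 h they were 0.86, 1.38 and 1.46. ID1 without BMP4 had climbed from 147 and 139 TPM at 12 h to 512 and 521 TPM at 48 h, whereas with BMP4 it was already 818 and 777 TPM at 12 h. Counted over the 14 genes, 9 were higher with BMP4 at 12 h, 13 at 24 h and 11 at 48 h, beside backgrounds of 0.420%, 2.56% and 7.18% of all genes. Time and the sort cannot be told apart between 48 h and 96 h.

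**Figure D3:**
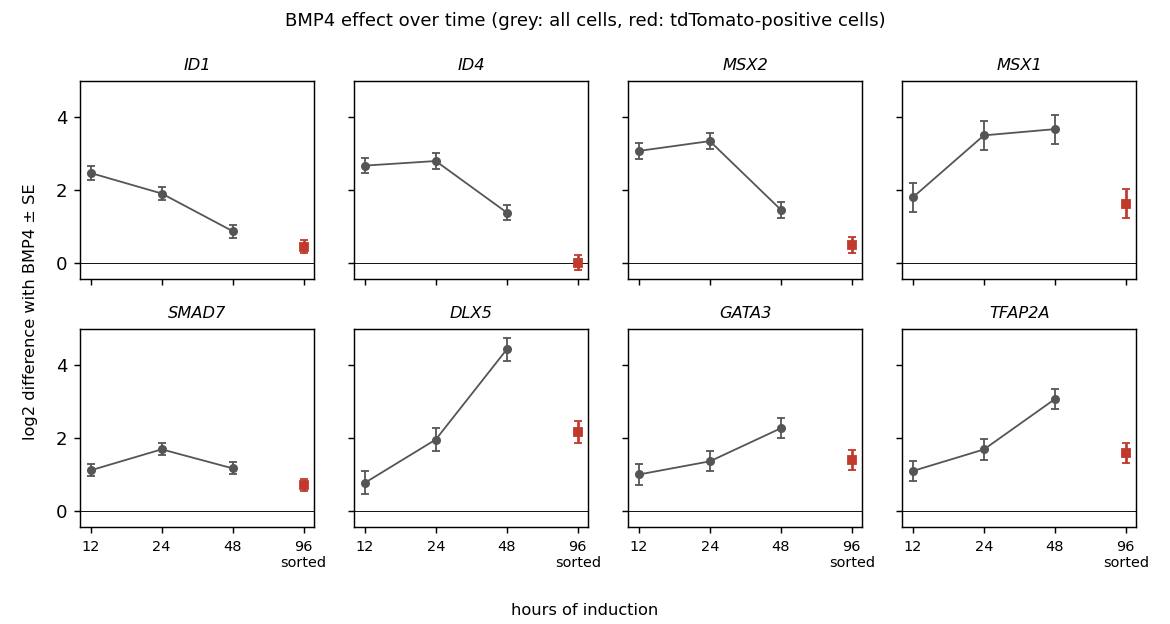
Log2 difference with BMP4 (y axis, ± SE) at 12, 24, 48 and 96 h (x axis) for 6 BMP targets and for GATA3 and TFAP2A, with unsorted cells in grey and tdTomato-positive cells in red. The ID and MSX2 differences are largest at 12 or 24 h and at most 0.48 at 96 h, whereas DLX5, GATA3 and TFAP2A peak at 48 h (4.44, 2.27 and 3.07).

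Among components of the BMP pathway itself, more genes fell than rose. Of 19 ligands, receptors, SMADs and antagonists tested, 1 rose and 5 fell, with a median difference of -0.39. Among ligands, BMP2 was 1.81 and 1.51 TPM with BMP4 and 7.14 and 14.7 TPM without it, a difference of -2.09 (SE 0.38, adjusted p = 0.000153), and GDF6 was 4.18 and 6.60 TPM with BMP4 and 17.9 and 43.6 TPM without it, a difference of -2.21 (SE 0.37, adjusted p = 4.43e-05). The BMP4 transcript was 102 and 99.8 TPM with BMP4 and 94.5 and 99.3 TPM without it and did not pass the test (0.05, adjusted p = 0.906, 95% interval -0.33 to 0.44). BMP7, chosen after its values were seen, was lower (-1.35, adjusted p = 0.000108). Among antagonists of activin and BMP ligands, FST (follistatin) was 17.8 and 34.0 TPM with BMP4 and 76.7 and 114 TPM without it, a difference of -1.88 (SE 0.32, adjusted p = 5.93e-05), whereas FSTL3 was 29.2 and 39.7 TPM with BMP4 and 5.81 and 6.22 TPM without it, a difference of 2.32 (SE 0.32, adjusted p = 2.49e-06). The related FSTL1, also chosen after its values were seen, fell by 0.97 (adjusted p = 4.34e-06). No receptor and no SMAD of the list passed the test, and the receptor BMPR1A was 45.6 and 45.3 TPM with BMP4 and 56.5 and 51.1 TPM without it.

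Factors of the nascent amnion and of PGC precursors were higher in part. GATA3, a zinc-finger factor downstream of BMP, was 126 and 127 TPM with BMP4 and 36.9 and 61.5 TPM without it, a difference of 1.39 (SE 0.28, adjusted p = 0.000538). TFAP2A, an AP-2 factor of the amnion, was 37.9 and 44.3 TPM with BMP4 and 12.3 and 13.7 TPM without it, a difference of 1.59 (SE 0.28, adjusted p = 0.000107). In both genes the lower BMP4 library was above the higher library without BMP4. GATA2 was 179 and 241 TPM with BMP4 and 82.1 and 141 TPM without it, a difference of 0.94 (SE 0.33, adjusted p = 0.0557) that missed the threshold but passed it without replicate 2 of the group lacking BMP4, with either other scaling or with the 16 libraries of the SOX17 courses. HAND1, a helix-loop-helix factor of extraembryonic mesoderm, was 79.8 and 111 TPM with BMP4 and 91.8 and 165 TPM without it, and the groups overlapped (-0.38, adjusted p = 0.499). Of 12 such factors tested, 2 rose and 0 fell at 96 h, whereas at 48 h 10 were higher.

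The germ cell programme itself was expressed with and without BMP4. SOX17 was 692 and 636 TPM with BMP4 and 386 and 366 TPM without it, a difference of 0.82 (SE 0.29, adjusted p = 0.0544). Reads of the SOX17-GR transgene and of the native gene cannot be told apart in this table, and the same holds for the TFAP2C and BLIMP1 transgenes, for which the labels list no induction in these libraries. TFAP2C was 981 and 938 TPM with BMP4 and 859 and 756 TPM without it, and NANOS3, the RNA-binding germ cell factor, was 276 and 234 TPM with BMP4 and 137 and 183 TPM without it. Their differences were 0.25 (adjusted p = 0.428, 95% interval -0.12 to 0.62) and 0.68 (adjusted p = 0.131, 95% interval 0.08 to 1.28). In SOX17, TFAP2C and NANOS3 each BMP4 library was above each library without BMP4, but no difference passed the test. SOX17 did pass with quantile normalization and when the spread came from the 16 libraries of the SOX17 courses. The difference of PRDM1 was -0.14 (adjusted p = 0.75). In the unsorted cells of 48 h, NANOS3, TFAP2C and SOX17 had been higher with BMP4 by the same test. Their differences there were 1.27, 0.91 and 0.86 (adjusted p = 0.00218, 0.000461 and 0.0407), while PRDM1 did not pass (0.21, adjusted p = 0.618). For comparison, undifferentiated cjESCs held 27.6 and 36.2 TPM of SOX17 and 0.42 and 0.74 TPM of NANOS3.

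Of 16 PGC genes tested, 2 rose and 1 fell. KIT, the receptor of SCF, was 3.37 and 3.62 TPM with BMP4 and 1.61 and 1.95 TPM without it (0.70, adjusted p = 0.0193), and MYCN was 275 and 234 TPM with BMP4 and 168 and 177 TPM without it (0.55, adjusted p = 0.0233). ITGA6, an integrin of PGCs, was 1.15 and 1.91 TPM with BMP4 and 3.61 and 3.96 TPM without it (-0.93, adjusted p = 0.0391). The calls of KIT and ITGA6 were lost whichever library was left out. That of MYCN was lost without replicate 1 of either group or replicate 2 of the group without BMP4. None of the 4 late germ cell genes tested passed, and DDX4 was at or below 0.73 TPM in all 4 libraries.

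POU5F1, the central pluripotency factor kept by PGCs, was 6321 and 5730.2 TPM with BMP4 and 4399 and 4113 TPM without it, a difference of 0.50 (SE 0.10, adjusted p = 0.000345). NANOG was 925 and 891 TPM with BMP4 and 709.8 and 587 TPM without it, with a difference of 0.49 (SE 0.17, adjusted p = 0.054). The groups were apart in both genes, but only POU5F1 passed the test, while NANOG passed with quantile normalization, with the 16 libraries of the SOX17 courses or with the replicate block. SOX2, which primate PGCs lack, was 0.82 and 1.30 TPM with BMP4 and 2.42 and 2.11 TPM without it, and PRDM14 was 51.5 and 42.7 TPM with BMP4 and 56.6 and 41.7 TPM without it. The groups were apart for SOX2 and overlapped for PRDM14, and neither passed the test, with differences of -0.67 (adjusted p = 0.118) and -0.05 (adjusted p = 0.936). Of 14 pluripotency genes tested, 1 rose and 4 fell. SOX3, a paralog of SOX2, was 2.79 and 0 TPM with BMP4 and 6.19 and 9.63 TPM without it (-2.17, adjusted p = 3.98e-05). ZIC2 was 2.58 and 2.35 TPM with BMP4 and 12.3 and 13.4 TPM without it (-2.00, adjusted p = 0.0224) and TDGF1, the NODAL co-receptor, was 138 and 134 TPM with BMP4 and 219 and 199 TPM without it (-0.62, adjusted p = 0.012). The call of ZIC2 was lost whichever library was left out and that of TDGF1 was kept only without replicate 2 of the group lacking BMP4. Among 9 genes of naive pluripotency, KLF4 was 102 and 117 TPM with BMP4 and 62.2 and 53.9 TPM without it (0.90, adjusted p = 0.00143) and NR5A2 was 0.33 and 0.19 TPM with BMP4 and 1.81 and 2.38 TPM without it (-1.29, adjusted p = 0.00197), and the others did not pass.

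Several genes of endoderm were lower with BMP4. FOXA2, a pioneer factor of endoderm, was 6.36 and 7.51 TPM with BMP4 and 37.4 and 59.4 TPM without it, a difference of -2.60 (SE 0.42, adjusted p = 3.28e-05). GATA6, a zinc-finger factor of endoderm, was 8.54 and 14.0 TPM with BMP4 and 37.6 and 55.5 TPM without it, a difference of -1.97 (SE 0.33, adjusted p = 5.59e-05). For both genes the group without BMP4 was well above the other. Of 15 endoderm genes tested, 6 fell and 1, GAST, rose, with a median of -0.52. With a pseudocount of 0.1, FOXA2 lost its call and 4 fell. With 1 library left out, 3 to 5 fell, the lowest count being without replicate 2 of the group lacking BMP4. The summed level of the list was 516 and 613 TPM with BMP4 and 731 and 1039 TPM without it. AFP, FGA and APOA2 were at or below 0.24 TPM in every library.

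Mesendoderm genes showed the same direction in part. EOMES, a T-box factor of the primitive streak, was 0 and 0.27 TPM with BMP4 and 5.16 and 4.45 TPM without it, a difference of -2.36 (SE 0.54, adjusted p = 0.00245). NODAL was 5.84 and 6.70 TPM with BMP4 and 27.1 and 18.9 TPM without it, a difference of -1.70 (SE 0.40, adjusted p = 0.00317). Both were low where BMP4 was present. GSC was 2.61 and 2.37 TPM with BMP4 and 12.0 and 11.0 TPM without it (-1.84, adjusted p = 0.0117) and APLNR, the receptor of apelin, was 2.91 and 3.05 TPM with BMP4 and 6.71 and 12.6 TPM without it (-1.36, adjusted p = 0.0049). TBXT, the T-box factor also used by PGCs, was 477 and 411 TPM with BMP4 and 362 and 306 TPM without it and did not pass (0.41, adjusted p = 0.523), and it was chosen after its values were seen. Of 13 genes tested, 4 fell and 1 rose. The gene that rose differed by less than the 4 that fell, and no gene of the list rose with a pseudocount of 0.1. The summed level of the list was 1168 and 1057 TPM with BMP4 and 1180 and 966 TPM without it, and the groups overlapped. The call of GSC was lost whichever library was left out, that of NODAL without replicate 1 and that of APLNR without replicate 2 of the group lacking BMP4. Of 6 genes of NODAL and activin feedback, 2, NODAL and TDGF1, fell and the others did not pass.

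More than one WNT ligand was lower beside WNT8A. Of 7 ligands tested, 4 fell and 0 rose, with a median difference of -0.99. In undifferentiated cjESCs WNT8A was 36.2 and 38.5 TPM, above its level in all 4 sorted libraries. WNT3A was 8.54 and 9.14 TPM with BMP4 and 29.6 and 38.5 TPM without it, a difference of -1.82 (SE 0.32, adjusted p = 0.000108), and WNT5B was 2.51 and 1.92 TPM with BMP4 and 8.16 and 12.9 TPM without it, a difference of -1.82 (SE 0.33, adjusted p = 0.000123). WNT3 was 1.27 and 2.30 TPM with BMP4 and 3.37 and 5.77 TPM without it (-0.99, adjusted p = 0.0204), a call lost with a pseudocount of 0.1 and without replicate 1 of the BMP4 group or replicate 2 of the other. Summed over the listed ligands, the level was 21.3 and 25.1 TPM with BMP4 and 79.0 and 89.8 TPM without it. Of 14 WNT targets and feedback genes, 2 fell and the others did not pass, with a median of -0.13. RSPO3, which enhances WNT signalling, was 24.3 and 52.7 TPM with BMP4 and 159 and 269.8 TPM without it, a difference of -2.50 (SE 0.37, adjusted p = 8.93e-06), and SP8, a zinc-finger factor, was 6.62 and 6.37 TPM with BMP4 and 28.8 and 27.2 TPM without it (-1.95, adjusted p = 0.000504). LEF1, a nuclear effector of WNT, was 0.07 and 0.85 TPM with BMP4 and 0.77 and 0.96 TPM without it (-0.40, adjusted p = 0.404), and AXIN2, a feedback gene chosen after its values were seen, was 4.13 and 6.19 TPM with BMP4 and 4.17 and 3.36 TPM without it (0.36, adjusted p = 0.506).

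Among genes of epithelial-mesenchymal transition and adhesion, more fell than rose. VIM, the intermediate filament of mesenchyme, was 68.4 and 59.7 TPM with BMP4 and 169.7 and 141 TPM without it, a difference of -1.26 (SE 0.19, adjusted p = 8.62e-06). SNAI2, a repressor of epithelial genes, was 0.77 and 0.70 TPM with BMP4 and 2.84 and 4.70 TPM without it (-1.43, adjusted p = 0.00143), and TWIST1 was 2.90 and 3.16 TPM with BMP4 and 5.93 and 12.8 TPM without it (-1.28, adjusted p = 0.00453). The epithelial cadherin CDH1 fell as well and was 43.7 and 63.8 TPM with BMP4 and 86.4 and 102 TPM without it (-0.82, adjusted p = 0.00221). Of 9 genes tested, 5 fell and 2 rose, the latter being CDH2 (0.73) and MMP2 (0.66), chosen after their values were seen. Neither rose without replicate 1 of the BMP4 group, and 1 gene rose without replicate 2 of the group lacking BMP4. Without the latter library, SNAI2, TWIST1 and CDH1 lost their calls and 2 genes fell. CDH1 also lost its call without replicate 1 of the BMP4 group. Summed over the transition and adhesion genes, the level was 2254 and 1981 TPM with BMP4 and 1889 and 1989 TPM without it, and the groups overlapped. Of 13 mesenchyme and vascular markers, DCN and FOXF1 alone passed the test, and both were lower. FOXF1 was 0.16 and 0 TPM with BMP4 and 1.02 and 2.94 TPM without it (-1.39, adjusted p = 0.00233), a call lost without replicate 2 of the group lacking BMP4. The summed level of these markers was 97.7 and 96.8 TPM with BMP4 and 176 and 272 TPM without it. Without DCN it was 91.7 and 87.4 TPM with BMP4 and 93.1 and 120.1 TPM without it, while the receptor gene PDGFRA was 32.3 and 38.3 TPM with BMP4 and 37.8 and 62.1 TPM without it and LUM did not pass 0.94 TPM in any library.

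Of 10 genes of epidermal differentiation and keratins, 3 rose and 3 fell. IVL, the cornified envelope protein involucrin, was 3.71 and 7.88 TPM with BMP4 and listed at 0 in both libraries without it (adjusted p = 1.61e-09). KRT17 was 5.19 and 4.44 TPM with BMP4 and 0.72 and 0.97 TPM without it (1.66, adjusted p = 0.00429), a call lost with a pseudocount of 0.1. In contrast KRT19, a keratin of simple epithelia, was 127 and 163 TPM with BMP4 and 316 and 485 TPM without it, a difference of -1.44 (SE 0.20, adjusted p = 2.34e-06), and KRT8 and KRT18, chosen after their values were seen, fell by 0.80 and 0.45. The list thus held its highest gene, PRR9, beside simple keratins that fell, and the basal epidermal factor TP63 was at or below 0.37 TPM in every library.

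**Figure D4:**
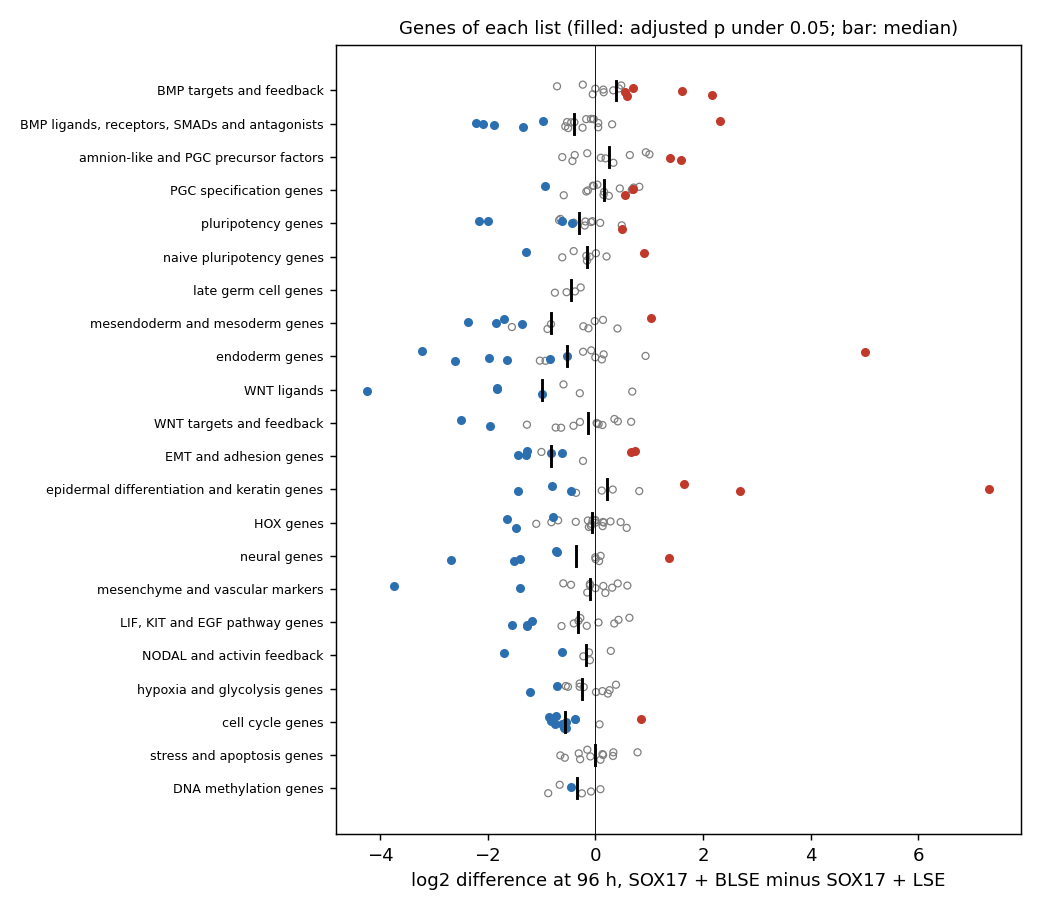
Log2 difference with BMP4 at 96 h (x axis) for the tested genes of each list (rows), filled red or blue where the adjusted p was under 0.05, with the median of each list as a black bar. The WNT ligand and mesendoderm medians lie at -0.99 and -0.82 and that of the BMP targets at 0.39, while no gene of the late germ cell or stress list is filled.

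Most cell cycle genes tested were lower, each by less than 1 log2 unit. Of 12 tested, 9 fell and 1 rose, with a median of -0.56. AURKB, a mitotic kinase, was 119 and 123 TPM with BMP4 and 206 and 237 TPM without it, a difference of -0.86 (SE 0.15, adjusted p = 7.07e-05). PLK1 was 53.7 and 61.3 TPM with BMP4 and 93.1 and 111 TPM without it (-0.81, adjusted p = 4.71e-05), and TOP2A was 225 and 210.2 TPM with BMP4 and 412 and 323 TPM without it (-0.74, adjusted p = 0.0286). CDKN1C, an inhibitor of cyclin-dependent kinases, moved the other way and was 169.9 and 177 TPM with BMP4 and 74.4 and 122 TPM without it (0.86, adjusted p = 0.0467). With 1 library left out, 4 to 6 of the 12 fell, the lowest count being without replicate 1 of the BMP4 group. TOP2A and CDKN1C were lost without replicate 1 or 2 of the BMP4 group or replicate 1 of the other. MKI67 and CDK1, hallmarks of cycling cells, were listed at or below 2.32 TPM in all 4 libraries. Whether cell cycle state bears on the other differences was not tested.

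In the LIF, KIT and EGF pathways, whose ligands both groups received, 4 of 13 genes fell and 0 rose. PIM1, a kinase induced by LIF, was 37.5 and 31.8 TPM with BMP4 and 88.0 and 80.8 TPM without it, a difference of -1.26 (SE 0.17, adjusted p = 9.17e-07). ERBB2, a partner of the EGF receptor, was 6.49 and 13.8 TPM with BMP4 and 25.4 and 35.1 TPM without it, a difference of -1.55 (SE 0.23, adjusted p = 7.26e-06). KITLG and SPRY2 fell from levels of at most 4.34 TPM, with differences of -1.28 and -1.18 (adjusted p = 0.00419 and 0.00688), and both were lost without replicate 2 of the BMP4 group or replicate 1 of the other. Of 21 HOX and CDX genes, 3 fell and 0 rose. CDX1, a posterior homeobox gene, was 36.4 and 38.1 TPM with BMP4 and 123 and 112 TPM without it, a difference of -1.63 (SE 0.31, adjusted p = 0.000333). CDX4 was listed at 0 in both BMP4 libraries and at 1.54 and 2.06 TPM in the others, and it kept its call only without replicate 1 of the group lacking BMP4.

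Of 10 neural genes, 5 fell and 1, EN2, rose. ELAVL3, a neuronal RNA-binding protein, was 2.11 and 1.82 TPM with BMP4 and 21.8 and 14.6 TPM without it, a difference of -2.67 (SE 0.31, adjusted p = 7.73e-08). POU3F1, a POU-domain factor, was 0.35 and 0.16 TPM with BMP4 and 2.24 and 2.39 TPM without it (-1.41, adjusted p = 0.000523). EN2, a midbrain homeobox gene, was 2.29 and 7.02 TPM with BMP4 and 0.68 and 1.36 TPM without it (1.37, adjusted p = 0.0114) and lost its call with a pseudocount of 0.1 and without replicate 2 of the BMP4 group or replicate 1 of the other. Of 12 hypoxia and glycolysis genes, 2 fell, with NDRG1 at 17.3 and 20.9 TPM with BMP4 and 38.6 and 53.9 TPM without it (-1.22, adjusted p = 2.72e-05) and SLC2A1, a glucose transporter, at 149.7 and 216 TPM with BMP4 and 254 and 343 TPM without it (-0.71, adjusted p = 0.0169). SLC2A1 lost its call without replicate 1 of the BMP4 group or replicate 2 of the other. Of 6 DNA methylation genes, UHRF1, which guides maintenance methylation, fell from 20.1 and 25.0 TPM to 16.2 and 16.1 TPM (-0.45, adjusted p = 0.0427) and kept its call only without replicate 1 of the group lacking BMP4. None of 12 stress and apoptosis genes passed, with a median of 0.00.

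The same contrast had been measured at 48 h in unsorted cells, in 4 other libraries, where 804 genes (7.18%) were higher and 687 (6.14%) lower at an adjusted p under 0.05. Of the 560 genes higher at 96 h, 201 were also higher at 48 h, which is 35.9% of the former and 25.0% of the latter. Of the 877 lower genes, 246 were lower at both times, 28.1% and 35.8%. The difference between the effects at 96 h and 48 h passed the test in 542 genes (4.84%), in 17 of the 37 higher DEGs and in 30 of the 49 lower DEGs. The DEGs were chosen at 96 h, so a larger effect there is part of how they were picked. PRR9 had already differed by 4.85 at 48 h, with 120.3 and 164 TPM with BMP4 and 4.91 and 3.07 TPM without it. The difference of GAST was 0.84 (adjusted p = 0.622) and TTR was listed at 0 in all 4 libraries of 48 h. WNT8A had been 17.1 and 31.2 TPM with BMP4 and 79.2 and 82.8 TPM without it, a difference of -1.76.

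**Figure D5:**
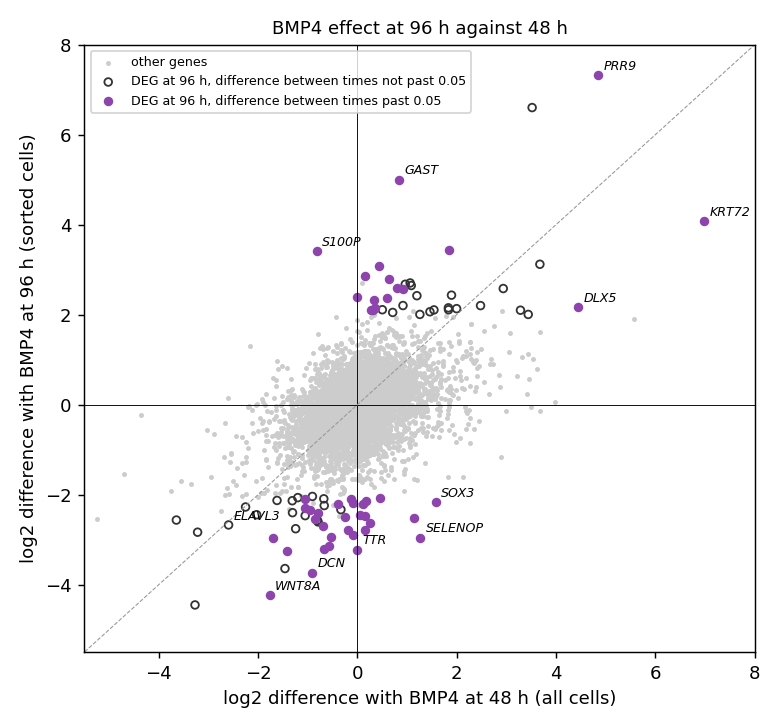
Log2 difference with BMP4 at 48 h in unsorted cells (x axis) against that at 96 h in sorted cells (y axis) for 11197 genes, with the 86 DEGs of 96 h as larger symbols, filled where the effects of the 2 times differed. The dashed line marks equal effects; KRT72 and DLX5 lie below it on the right, while GAST and S100P lie near the vertical axis.

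Levels in other cells of the series at 96 h give a further comparison. BLIMP1-tdTomato-positive cjPGCLCs induced with BLSE and the WNT inhibitor IWR1 received BMP4 without the SOX17 transgene, but they came from pre-induced cells kept in PESFA medium, and their labels list the same reporters and no transgenes, so line history, dexamethasone and IWR1 cannot be told apart there. On the log2 scale, 45 of the 49 lower DEGs lay nearer to SOX17 + BLSE than to SOX17 + LSE in those cells (91.8%), as did 5 of the 37 higher DEGs (13.5%) and 54.2% of all genes tested. Their mean was above both groups in 0 DEGs of either direction, beside 3212 of the 11197 genes tested. It was below both groups in 13 of the 37 higher and 15 of the 49 lower DEGs, beside 4361 of the 11197 genes. The DEGs were picked from the same 2 groups, and cells with low levels lie nearer to whichever group is low. The shares therefore do not show a likeness to either group. WNT8A was 1.43 and 1.20 TPM and FOXA2 5.74 and 7.67 TPM in the IWR1 cells, beside the 0 and 0.85 and 6.36 and 7.51 TPM of SOX17 + BLSE. PRR9 was 17.3 and 14.5 TPM, GAST 4.43 and 5.21 TPM and SLC13A4 6.48 and 11.3 TPM, far under their levels in SOX17 + BLSE. No test of this contrast was made.

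Unsorted cells in BLSE without SOX17 at 96 h, which the labels call differentiated, were above the sorted SOX17 + BLSE cells in DEGs of both directions. Their mean was the higher one in 21 of the 37 higher DEGs (56.8%), in 32 of the 49 lower DEGs (65.3%) and in 36.7% of all genes tested. The lower DEGs were picked for low levels in SOX17 + BLSE, so a high share among them was partly set by that choice. It was 69.4% in the IWR1 cells and 71.4% in undifferentiated cjESCs. For the higher DEGs the shares of these cells were 0.00% and 5.41%, beside 44.7% and 42.2% of all genes tested. The higher DEGs were picked for high levels in SOX17 + BLSE, so low shares among them were likewise partly set. In BLSE cells PRR9 was 645 and 1042 TPM, GAST 169 and 231 TPM, S100P 76.6 and 142 TPM and LOC100391685 1348 and 2359.9 TPM. B4GALNT2, by contrast, was 0 and 0.15 TPM in BLSE cells. Other genes abundant in BLSE cells were VIM (1924 and 1763 TPM), DCN (1703 and 1054 TPM) and HAND1 (1225 and 1171 TPM). In the sorted cells VIM and DCN were lower with BMP4 than without it, and HAND1 did not pass the test. NANOS3 was 1.94 and 1.05 TPM in BLSE cells. Whether such cells among the sorted ones had a part in the higher genes was not tested.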

How the data were processed

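RNA was sequenced from polyA-selected, directional libraries. Per the methods, STAR placed single-end reads on the marmoset assembly cj1700, alignments with very many locations were dropped, which can lower genes with near-identical copies, and RSEM gave abundances. The authors deposited TPM for genes shared by marmoset and human. TPM hold no read totals, so depth is unknown and no counting interval is given. From these, log2 values were made with a pseudocount of 1, and the 11197 of 14812 genes that reached 1.5 in any library were tested. The model, in limma 3.58.1 under R 4.3.3, gave each of the 27 conditions its own mean, used the 54 libraries together (27 residual degrees of freedom) and let the prior variance follow the level. Tests were two-sided, and p-values were adjusted by Benjamini-Hochberg across these genes. DEGs differed by over 4-fold with an adjusted p below 0.01 and an average level above 1.5. List members were called at an adjusted p under 0.05. The authors used edgeR on counts, for which TPM are unsuited. For 2 against 2 libraries the smallest p of an exact permutation test is 0.333.

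The genes, the 22 lists and the comparison were chosen with earlier results of these data known. Named genes are the 10 largest increases and 10 largest decreases among DEGs with a symbol beyond a locus number. They also include 4 marker genes and genes the study names in its work on SOX17 and BMP4. Up to 4 genes of each list with the largest differences at an adjusted p under 0.05 complete the rule. A few genes that the rule names are not reported here. Any other gene was chosen after its values were seen. Alternatives were another pseudocount, no filter, fewer libraries, a replicate block, 2 other scalings, no intensity trend, and each library left out. No identical pair was found among the 4 libraries. Same-numbered libraries deviated together at r = 0.12 over 2 pairs, and the labels tie no number to a shared culture.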

Additional observations from a re-analysis of the deposited data

Results flagged for a closer look

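Among the 89 named genes, 39 had a BMP4 effect that differed between 96 h and 48 h at an adjusted p under 0.05 (limma, difference of the differences, Benjamini-Hochberg over all genes), beside 4.84% of all genes. The value after each gene is the log2 difference with BMP4 at 96 h minus that at 48 h. The 96 h cells were sorted and the 48 h cells were not, so time and sort cannot be told apart, and the largest changes were chosen for their size at 96 h.

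The effect was more positive at 96 h for S100P (4.23), GAST (4.16), ERVV-2 (2.70), COMP (2.65), PRR9 (2.47), B4GALNT2 (2.17) and SLC13A4 (1.61) among the largest increases, and for IVL (2.59), FSTL3 (1.98) and MYCN (1.04). PRDM14 had been lower with BMP4 at 48 h (-2.20) and differed little at 96 h (-0.05), a shift of 2.15. The direction of MYCN turned from -0.49 to 0.55.

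Of the 14 BMP targets tested, 6 passed this test, and so did 5 of the 12 amnion-like and PGC precursor factors. Those among the named genes were DLX5 (-2.28), MSX1 (-2.06), HAND1 (-1.55), TFAP2A (-1.49) and ID4 (-1.38), all less positive at 96 h, as was the keratin KRT72 (-2.90). The ligand and antagonist genes were RSPO3 (-2.25), GDF6 (-1.83), FST (-1.61), WNT8A (-2.47), WNT3A (-1.51) and WNT3 (-1.45). SELENOP and SOX3 turned from higher at 48 h (1.27 and 1.57) to lower at 96 h, with shifts of -4.22 and -3.74. Among the other largest decreases the shifts were TTR (-3.22), DCN (-2.82), LRRN4 (-2.58), HAPLN1 (-2.54), PVALB (-2.41), DDC (-1.83) and NSG1 (-1.24). The remaining shifts were CDX4 (-2.42), FOXF1 (-2.07), ERBB2 (-1.58), AURKB (-1.31), KRT19 (-1.14), CDH1 (-0.98) and VIM (-0.89).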

How the results depend on the processing

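With a pseudocount of 0.1, 21 genes were higher and 45 lower by the DEG rule, and 49 of the 86 DEGs remained. In the fit of the 4 libraries alone (2 residual degrees of freedom), 0 genes were higher, 0 lower and 0 passed an adjusted p of 0.05, while 2423 had an unadjusted p under 0.05, 87 of them past the fold and level limits. Leaving out 1 library gave 22 to 50 higher DEGs, 40 to 77 lower DEGs, 840 to 941 genes at an adjusted p under 0.05 against 1437, and 305 to 502 genes with a difference between 96 h and 48 h against 542. The lone library of such a fit is assumed to vary like the other groups. The replicate block gave 1489 genes at an adjusted p under 0.05, 37 higher and 49 lower DEGs and 594 differences between times, and among named genes it changed only the call of NANOG, which passed. Median-ratio scaling and quantile normalization gave 33 higher and 47 lower DEGs each. Among named genes that were not called, the differences ran with 1 library left out from -0.19 to 0.19 for ID4, from -0.27 to 0.16 for PRDM14 and from -0.80 to 0.035 for HAND1, and these turned direction. Single calls among named genes also moved elsewhere: with a pseudocount of 0.1, MSX1, ITGA6, KIT, GSC, FOXA2, WNT3, KRT17, EN2 and CDKN1C were lost, and HEY1, CDX4, TOP2A, UHRF1 or CDKN1C were lost with another scaling, without the filter or trend, or with the 16 libraries of the SOX17 courses, where ID1, GATA2, SOX17 and NANOG were gained. Of 76 named genes called at 96 h, 51 kept an adjusted p under 0.05 without any 1 library and 6 lost it whichever library was left out. Why calls were lost was not tested, beyond the fewer libraries of each fit.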

Other observations

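A few further higher DEGs were chosen after their values were seen and stand for no group. ZNF750, a factor of terminal epidermal differentiation, was 3.21 and 8.32 TPM with BMP4 and 0.63 and 0.25 TPM without it, with a difference of 2.13 (SE 0.30, adjusted p = 3.97e-06). PADI1, a deiminase of the epidermis, was 4.94 and 7.48 TPM with BMP4 and 0.70 and 0.50 TPM without it, and CSTA, a protease inhibitor of the cornified envelope, was 17.6 and 20.3 TPM with BMP4 and 5.56 and 1.86 TPM without it. VGLL1, a TEAD cofactor of trophoblast, was 8.89 and 24.2 TPM with BMP4 and 1.84 and 4.45 TPM without it, a difference of 2.01 (SE 0.44, adjusted p = 0.00135). All 4 had differed at 48 h as well, from 1.83 for PADI1 to 3.44 for VGLL1. Of all 37 higher DEGs, 19 passed the test at 48 h in the same direction, as did 18 of the 49 lower DEGs. The shares over all genes at 48 h were 7.18% higher and 6.14% lower.

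Among further lower DEGs chosen in the same way, GC, the vitamin D-binding protein made by liver, was 29.1 and 59.2 TPM with BMP4 and 178 and 383 TPM without it, a difference of -2.62 (SE 0.47, adjusted p = 0.000113). APELA, a peptide hormone of early embryos and a ligand of APLNR, was 2.94 and 4.45 TPM with BMP4 and 20.6 and 54.1 TPM without it, a difference of -2.90 (SE 0.45, adjusted p = 1.56e-05). LAMA1, a basement membrane laminin, was 14.7 and 20.0 TPM with BMP4 and 75.0 and 134 TPM without it. At 48 h the differences of GC, APELA and LAMA1 were 0.26, -0.08 and 0.15, and the difference between the times passed the test for each (adjusted p = 0.00526, 0.0047 and 2.35e-05).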
